A study of Mus musculus with 1479 samples.

Results

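Lhcgr and Mc5r encode hormone receptors that were read in few stromal cells of the mouse urinary bladder. They are 2 of the 46517 gene rows of the count table, and were selected on their reads per cell over the clusters: Lhcgr was read in cluster 10 and Mc5r mainly in cluster 5. Their levels over clusters, lines and plates are therefore described here without a test. Each gene symbol matched 1 row.

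LHCGR is the receptor for luteinizing hormone and chorionic gonadotropin. It is a receptor with a large hormone-binding ectodomain that couples through the G protein Gs to adenylyl cyclase and cyclic AMP, and it is best known from the steroid-producing cells of testis and ovary. MC5R is a melanocortin receptor, which responds to alpha-MSH and ACTH, peptides cut from the precursor POMC. It also couples to Gs and cyclic AMP, and is best known from sebaceous and other exocrine glands. Both receptors are switched off through receptor kinases and arrestins, while phosphodiesterases degrade the cyclic AMP that they produce.

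The data were Smart-seq2 libraries of 1479 single cells from the bladder of male mice aged 10 to 20 weeks, with 1 library per sorted cell. The mice were C57BL6 without a reporter (190 cells) or carried 1 of 4 reporters, in which the promoter of a named gene drives a fluorescent protein. These were Acta2GFP, Cspg4dsRED, PdgfraGFP and PdgfrbGFP, of which the last gave most cells (810). Cells were sorted on the reporter or on antibodies, with endothelial cells positive for CD31 left out, so each line is enriched for cells that use its own reporter gene. No treatment was given, and the labels name no animal and do not say whether animals were pooled. Each cell carried one of the authors' cluster numbers from 1 to 11. The study called cluster 10 mural, that is pericytes and smooth muscle cells of vessels. It held 12 Acta2GFP, 3 C57BL6, 65 Cspg4dsRED and 45 PdgfrbGFP cells. The 76 cells of cluster 5 were called sub-epithelial fibroblasts, and the other clusters, with 1278 cells, were taken as fibroblasts.

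The cells held 50276 to 1446059 reads with a median of 214893, and lay on 6 plates. Median endogenous depth, that is reads on mouse genes without the spike-in RNA, was 128369 in cluster 10 and 256725 in cluster 5. A level is given as reads per 500000 endogenous reads. It was averaged first within each line and then between lines, and its SD is that of the line means. A line counted as 1 replicate where it had at least 3 cells in the cluster, on the assumption that lines came from separate mice, although the study also used mice with combined reporters. The p-values given further on measure only the spread between lines. A share of cells is that with at least 1 read, with an exact Clopper-Pearson 95% interval. These intervals, and the limit of 3 counts used where a count was 0, cover counting error only, because reads without molecular identifiers are not independent molecules. Shares were also taken after thinning each cell to 50000 endogenous reads, so that depth was equal.

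The names of clusters 10 and 5 held against their marker genes, with the other clusters checked only as a pool. The 7 mural markers (Acta2, Myh11, Tagln, Mcam, Notch3, Cspg4 and Des) summed to line means of 6507 to 12459 reads per 500000 in cluster 10. In cluster 5 they summed to 433 to 750, and in the other fibroblast clusters to 62.6 to 162.7. All 7 had a read in most cells of cluster 10. The 5 sub-epithelial markers (Tnc, Bmp5, Bmp7, Cxcl14 and Col12a1) summed to 1407 to 4262 in cluster 5, 83.7 to 173.9 in the other fibroblast clusters and 6.02 to 28.6 in cluster 10. The fibroblast markers were also at full level in cluster 5, with 15137 to 25137. Markers of gonadal steroid-producing cells (Star, Cyp11a1, Cyp17a1, Hsd3b1 and Insl3) summed to at most 2.28 in a line of cluster 10 and 2.91 in a line of cluster 5. Among them, Cyp17a1 and Hsd3b1 had no read in any cell.

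Lhcgr (ENSMUSG00000024107) lies on the minus strand of chromosome 17 at chr17:88716481-88791990 in GRCm38, with 7645 exon bases. It had 400 reads in the whole data set, and all of them came from cluster 10, where 10 cells held a read, or 8% of the cluster (interval 3.90 to 14.2%). None of the 1354 other cells held one, which allows a share of up to 0.222%. In cluster 5 alone, a count of 0 in 76 cells allows up to 3.95%. In the single random draw used for thinning, all 10 cells kept a read. As 2 of them held only 1 read as deposited, another draw could keep fewer.

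Few cells carried these reads. The highest cell, from the Acta2GFP line, held 220 Lhcgr reads, or 55% of the total. Together with the highest Cspg4dsRED cell it held 86% of the reads, and 56 reads remained for the other 8 cells. These held 21, 3 and 2 reads (Cspg4dsRED), 15 reads (C57BL6), and 9, 4, 1 and 1 reads (PdgfrbGFP). Only 4 cells, or 3.2% of the cluster (interval 0.879 to 7.99%), thus had at least 10 reads, and they came from 3 lines. Relative to depth, these 4 cells stood at 413, 392, 117.7 and 65.8 reads per 500000, and the median cell of every line was at 0.

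The cells with Lhcgr reads were spread over all 4 lines present in cluster 10. In Acta2GFP 1 of 12 cells (8.33%) held a read, in C57BL6 1 of 3 (33.3%), in Cspg4dsRED 4 of 65 (6.15%) and in PdgfrbGFP 4 of 45 (8.89%). Their level was 34.4 reads per 500000 for Acta2GFP, 21.9 for C57BL6, 8.24 for Cspg4dsRED and 2.01 for PdgfrbGFP. In Acta2GFP and C57BL6 that level came from a single cell. The mean over lines was 16.7 ± 14.5 (SD, n = 4 lines), so the spread was nearly as large as the mean, while all other clusters were at 0. These means give the 3 C57BL6 cells the weight of a whole line. Over all cells of the cluster alike the level was 8.84, and the mean of the line shares was 14.2%. Without the 2 cells with most reads the level was 6.55, and without the Acta2GFP line it was 10.7. By plate, reads were found on bladder_352s (4 of 49 cells), bladder_443s (1 of 3), bladder_515s (4 of 33 in 2 lines) and bladder_881s (1 of 20), and not on bladder_074s (0 of 4) or bladder_689s (0 of 16).

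**Figure D1:**
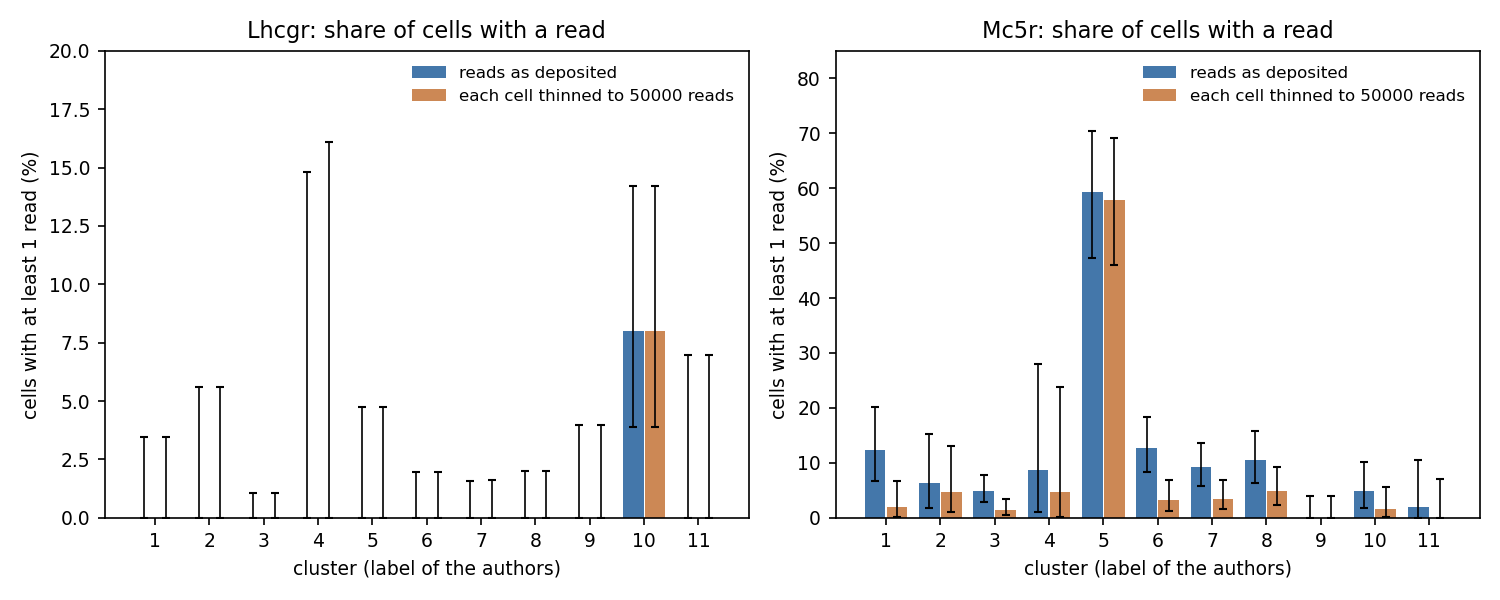
Share of cells with at least 1 read of Lhcgr (left) and Mc5r (right) in clusters 1 to 11, in percent, as deposited and after thinning each cell to 50000 reads. Bars on the columns are exact 95% intervals. Lhcgr stands at 8% in cluster 10 and at 0 elsewhere, while Mc5r stands at 59.2% in cluster 5 and its small shares elsewhere shrink after thinning.

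The 10 cells carried contractile mural genes. Each held 965 to 1996 reads of Acta2 and up to 2239 of Myh11, which encode smooth muscle actin and myosin, and 36 to 377 of Mcam, a mural surface protein. Notch3, a receptor of mural cells, was read in 8 of them (80%) and was at 0 in 2 Cspg4dsRED cells, among them the one with the second most Lhcgr reads. Over the cluster Notch3 was read in 86.4% of cells. Pdgfrb, the PDGF receptor of mural cells and the gene of another reporter, had 0 or 1 reads in all 4 Cspg4dsRED cells and 51 to 453 in the other 6.

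Pericyte genes were read in part of them. Rgs5, a regulator of G protein signalling used as a pericyte marker, was read in 4 of the 10 cells (40%), among them the cell with most Lhcgr reads, and was at 0 in the other 6. Over the whole cluster 69 cells (55.2%) had an Rgs5 read. Kcnj8, a potassium channel subunit of pericytes, was read in 2 of the 10 cells (20%) and in 26.4% of the cluster. Its partner Abcc9 was read in 5 (50%, cluster 36.8%), Cox4i2 in 7 (70%, cluster 60.8%), Higd1b in 3 (30%, cluster 25.6%) and Vtn in 0 (cluster 8.8%). The 6 pericyte genes thus did not share a direction. Star, Cyp11a1, Cyp17a1 and Insl3, genes of gonadal steroid-producing cells, were at 0 in all 10. The median sums of the endothelial markers were 13.4 and 12.1 reads per 500000 with and without a Lhcgr read, and those of the fibroblast markers 452 and 517.

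Depth did not separate these cells, with a median of 124046 endogenous reads against 128369 in the cluster 10 cells without a Lhcgr read. The most uneven marker was Ano1, a calcium-activated chloride channel found in vascular smooth muscle and in interstitial cells of Cajal. It was read in 9 of the 10 cells (90%) and in 52 cells of the cluster (41.6%), and its median was 228.6 reads per 500000 with and 0 without a Lhcgr read. Among the Ano1 cells, 17.3% held a Lhcgr read. Kit, the receptor tyrosine kinase that marks interstitial cells of Cajal, was read in 0 of the 10 cells and in 1 cell of the cluster (0.8%). Akap6, an anchoring protein for protein kinase A, was read in 6 of the 10 cells (60%) and in 22 of the others (19.1%). Pde1b, a phosphodiesterase activated by calcium and calmodulin, was read in 5 of the 10 (50%) and in 30 of the others (26.1%). Other list genes were read less often in the 10 cells, by smaller differences than that of Akap6. Calcrl was read in 1 of the 10 (10%) against 35.7% of the others, Rgs16 in 0 against 25.2%, and Tspo in 4 (40%) against 65.2%. These 5 genes were picked from the lists after their values were seen. With 10 cells these shares are coarse, and they were read from the cells that defined the pattern.

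The neighbours of Lhcgr on chromosome 17 were nearly silent. Fshr, the gene of the related receptor for follicle-stimulating hormone, begins 192962 bases away and had no read in any cell. Gtf2a1l, a germ-cell relative of a general transcription factor, lies 1329 bases away on the opposite strand without overlap and had 8 reads in 1 cell. This was the C57BL6 cell that held 15 Lhcgr reads.

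**Figure D2:**
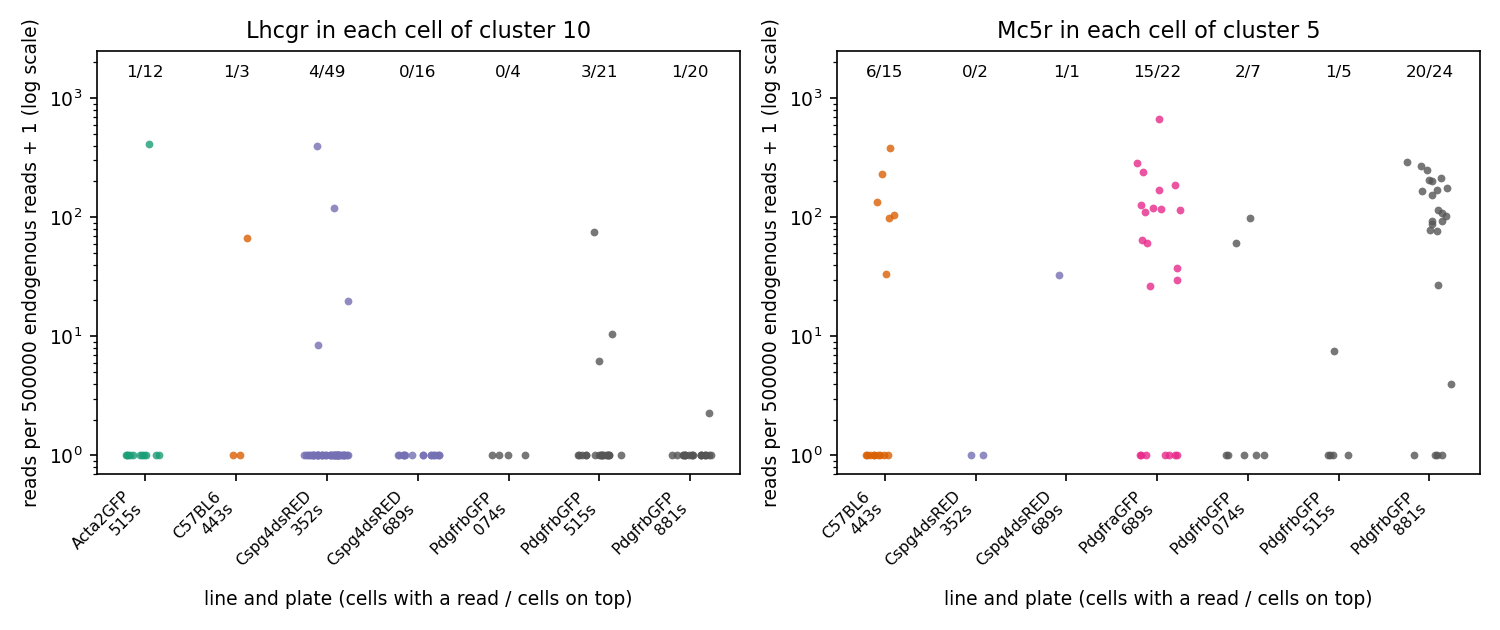
Lhcgr in each cell of cluster 10 (left) and Mc5r in each cell of cluster 5 (right), as reads per 500000 endogenous reads plus 1 on a log scale, by line and plate. Each point is a cell and the counts on top give cells with a read over all cells. Lhcgr reaches 413 and 392 in single cells of 2 lines, whereas 45 of 76 cells carry Mc5r.

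Within cluster 10, the genes most like Lhcgr were found by the Pearson correlation over its cells of log2(reads per 500000 + 1), centred within each plate and line, among 6957 genes read in at least 20% of the cells. The points share plates and the normalization by depth. The highest 10 were Maoa, which breaks down monoamines (r = 0.409), Slc45a4 (0.377), Nf2, a tumour suppressor of the Hippo pathway (0.370), Col12a1, a fibril-associated collagen (0.369), Rars, an arginyl-tRNA synthetase (0.367), Gpn1 (0.365), Aimp1, a scaffold of the tRNA synthetase complex (0.360), Pdzd11 (0.352), Gstt2 (0.347) and Pnck, a calcium/calmodulin-dependent kinase (0.342). The order rested on the highest cells. Without the 2 cells with most Lhcgr reads, only 3 of these 10 genes stayed among the first 10, and r fell to 0.187 for Maoa, 0.0959 for Slc45a4 and 0.0306 for Gstt2, whereas Nf2 held 0.345 and Pnck 0.401. Ano1 stood at rank 27 with r = 0.298, and at 0.346 without these cells. Among the mural markers r ran from -0.13 for Des to 0.167 for Tagln, and log2 depth had r = -0.0194.

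A similar search used sums per line and cluster, over 43 groups of at least 3 cells and 14586 genes. The 5 genes closest to Lhcgr were Akap6 (r = 0.920), Tmem182 (0.913), Grk3 (0.903), E030013I19Rik (0.896) and Cacna1h (0.891), the last a T-type calcium channel. Only 4 of the 43 groups held any Lhcgr read, so these values compare the 4 lines of cluster 10 with 0 elsewhere. Single cells did not follow in each case. Lhcgr and Akap6 were read together in 6 cells and Lhcgr and Cacna1h in 5, but Lhcgr and Tmem182 in 0 cells. The cell with most Grk3 reads was the Acta2GFP cell with 220 Lhcgr reads. E030013I19Rik is an antisense transcript whose gene overlaps Itga8, and the Cacna1h gene overlaps Tpsg1. Overlap of exons was not checked, so whether reads were shared with these partners was not tested.

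Mc5r (ENSMUSG00000007480) lies on the plus strand of chromosome 18 at chr18:68337596-68342446, with 3904 exon bases. It had 4105 reads in all, of which 3911 (95.3%) came from cluster 5. There 45 of 76 cells (59.2%, interval 47.3 to 70.4%) held a read, and 44 (57.9%, interval 46.02 to 69.1%) after thinning. Unlike those of Lhcgr, the reads were shared by many cells. At least 10 reads were found in 41 cells (53.9%) with a median of 77, at least 100 in 16 cells, and the 2 highest cells held 14.4% of the reads. Cells fell into a group with many reads and a group with none, since only 4 cells had 1 to 9 reads and 31 had 0.

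All 4 lines in cluster 5 contained Mc5r reads. They were found in 6 of 15 C57BL6 cells (40%), 1 of 3 Cspg4dsRED cells (33.3%), 15 of 22 PdgfraGFP cells (68.2%) and 23 of 36 PdgfrbGFP cells (63.9%). The levels were 65.2, 10.5, 106.6 and 84.2 reads per 500000 in this order, and the mean was 66.6 ± 41.1 (SD, n = 4 lines). The Cspg4dsRED value came from 1 cell with 9 reads. Shares differed between plates within the PdgfrbGFP line, and the cause was not tested. On plate bladder_881s 20 of 24 cells held 2347 reads, whereas on plate bladder_074s 2 of 7 and on plate bladder_515s 1 of 5 cells held a read. Without plate bladder_881s the share in cluster 5 was 48.1% and the level 48.9.

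The level of Mc5r in every other cluster was far lower. Next in order stood cluster 2 with 1.34 ± 2.71 reads per 500000 (SD, n = 5 lines), cluster 10 with 0.377 ± 0.436 (n = 4) and cluster 4 with 0.337 ± 0.477 (n = 2). Clusters 6, 8, 11, 1, 7 and 3 followed with 0.199, 0.106, 0.0938, 0.0874, 0.0607 and 0.0561, and cluster 9 was at 0. In cluster 5 the lowest line, at 10.5, was above the highest line of any other cluster, 6.18. From cluster 2 down to cluster 3, neighbours in the order differed by less than the larger of their SDs over lines, while clusters 3 and 9, the last pair, differed by more. Per 1000 exon bases, which makes genes comparable, the level of Mc5r in cluster 5 was 17.1 ± 10.5 and that of Lhcgr in cluster 10 was 2.18 ± 1.90 reads per 500000 (SD, n = 4 lines each).

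Outside cluster 5, 7.63% of the 1403 cells held an Mc5r read. Of these, 70 cells had 1 read, 34 had 2 or 3, 2 had 4 to 9 and 1 had more. After thinning 36 cells (2.58%) kept a read. These reads followed the position of wells on the plates. Among cells outside cluster 5 in the same row or column as a cluster 5 cell with at least 10 Mc5r reads, 21.8% of 481 (interval 18.2 to 25.8%) held a read. Among cells that shared neither, 2 of 922 (0.217%, interval 0.0263 to 0.781%) did. On plate bladder_881s 87 such cells (44.8%) against 0 of 44 held a read, on bladder_443s 12 of 86 against 0 of 89, and on bladder_074s 6 of 69 against 0 of the others, which allows up to 1.04%. On plate bladder_689s, with 14 such cluster 5 cells, none of the cells in their rows or columns held a read, which allows up to 2.27%. The cause was not tested, and the small shares outside cluster 5 are not read here as expression.

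A single cell departed from this. It belonged to cluster 2, line C57BL6, plate bladder_443s, and held 41 Mc5r reads with 0 reads of Tnc and Bmp5, 11 of Acta2 and 597 of Cd34. It too shared a row or column with a cluster 5 cell with at least 10 Mc5r reads. Every other cell outside cluster 5 had at most 5 reads. For Lhcgr the comparison could hardly be made, as 1 of 77 cells in the row or column of a cell with at least 10 reads and 5 of 1398 elsewhere held a lower number of reads, all of them in cluster 10.

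**Figure D3:**
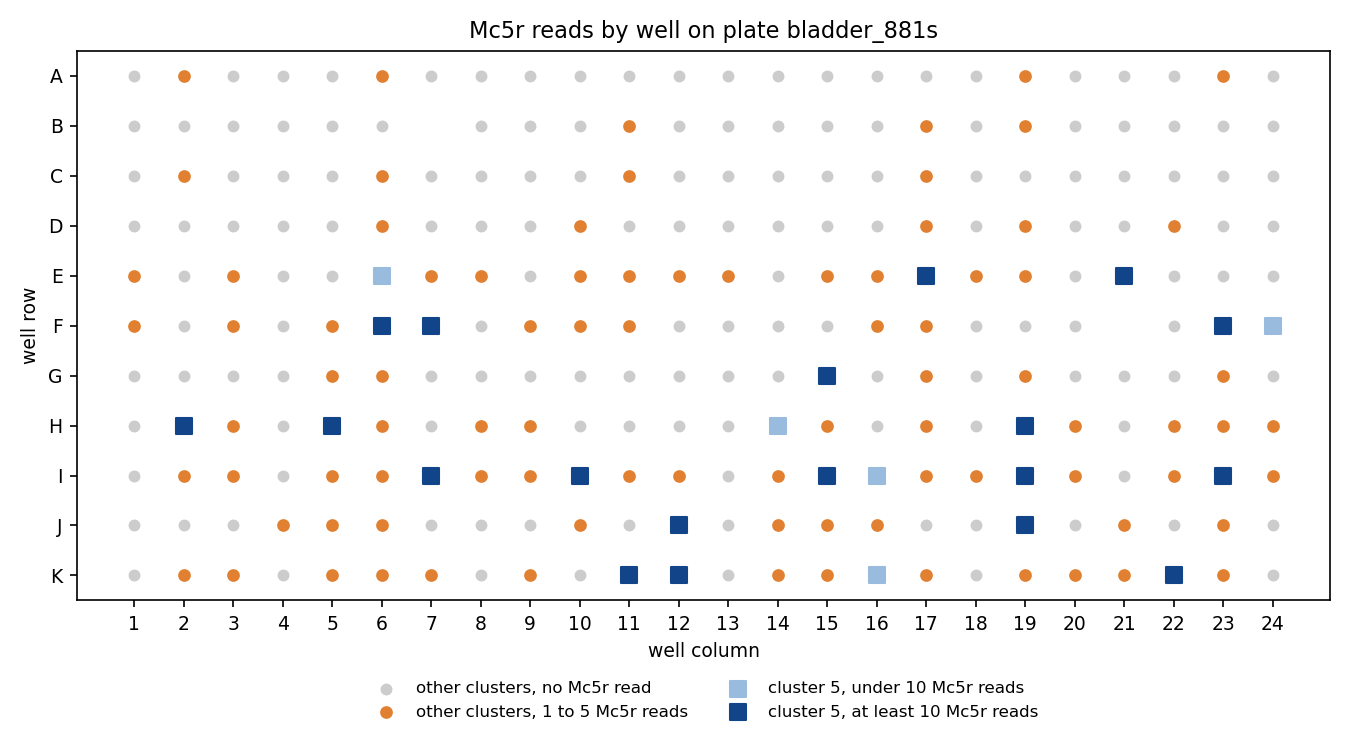
Mc5r reads by well row and column on plate bladder_881s. Squares are cluster 5 cells and circles cells of other clusters. All 87 cells of other clusters with Mc5r reads share a row or column with a cluster 5 cell that has at least 10 reads.

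Within cluster 5, the 45 cells with and the 31 cells without an Mc5r read differed in several genes. Their median depth was 320815 and 236995 reads, so the comparison is not free of depth, and Mc5r had r = 0.262 with log2 depth over cells. The median of Tnc, which encodes the matrix protein tenascin C, was 759 reads per 500000 with and 198.7 without an Mc5r read. Cxcl14, a chemokine, had 1026 against 546, and Bmp5, a growth factor, 351 against 128.9. Acta2, a marker of contractile cells, had 552 against 40.6. In the other direction, Fbln1, a matrix gene of other fibroblasts, had 891 against 1997, and Cd34, a marker of adventitial fibroblasts, 37.2 against 73.2. Lum, encoding lumican, was level at 27.9 and 28.2.

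These directions were compared on each plate with at least 2 cells of either kind. Tnc and Acta2 were higher in the cells with Mc5r on all 4 such plates. For Acta2 the medians were 621 against 36.2 on bladder_881s, 552 against 9.72 on bladder_689s, 352 against 181.6 on bladder_443s and 1197 against 603 on bladder_074s. Fbln1 was lower on 3 of them and about level on bladder_074s, at 2003 and 1973. Tnc was read in 44 of the 45 cells with Mc5r, but also in 24 of the 31 others. Among cells with at least 10 Tnc reads, 43 of 63 in cluster 5 held an Mc5r read and 39 held at least 10. Only 5 cells outside the cluster had that many Tnc reads, and 3 of these held at most 3 Mc5r reads.

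Over 73 cells of cluster 5 and 9752 genes, the genes most like Mc5r, among the first 10, were Prss35, a serine protease homologue (r = 0.562), Hhip, a membrane protein that binds hedgehog ligands (0.544), Gm13713 (0.476), Nek6, a mitotic kinase (0.467), Arhgap28, a GTPase-activating protein (0.454), Apol7d (0.449), Rbp4, a retinol carrier (0.447), Polr2f, an RNA polymerase subunit (0.436) and Gm27820 (0.434). They depended less on the highest cells than the list for Lhcgr. Without the 2 cells with most Mc5r reads, 8 of the first 10 stayed and r of the genes named was 0.415 to 0.547. Gm27820 lies within Hhip on the opposite strand, Gm13713 overlaps Lrrc55 and Apol7d overlaps Fn1. Overlap of exons was not checked, so whether their reads belong to these genes was not tested. Hhip had medians of 441 against 65.99, 258.1 against 56.04, 503 against 3.71 and 579 against 4.32 with and without Mc5r on plates bladder_881s, bladder_689s, bladder_443s and bladder_074s.

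The marker lists followed in part. Cxcl14 had r = 0.426 (rank 11), Tnc 0.381 (rank 23), Col12a1 0.366, Bmp5 0.243 and Bmp7 0.103. Of the mural markers with a value, Acta2 had 0.360 and Myh11 0.353, but Cspg4, Tagln and Des had 0.111, 0.0772 and 0.0527 and Mcam -0.15. Of the fibroblast markers, Fbln1, Lum, Cd34 and Dcn had -0.37, -0.37, -0.36 and -0.33, while Pdgfra had -0.094, Col1a2 0.00864 and Col1a1 0.0814. Over the 43 line and cluster sums, the closest genes were 8030451A03Rik (r = 0.936), Tnc (0.928), Tlr12, a receptor of innate immunity (0.909), Ptprr, a tyrosine phosphatase (0.908) and Myadml2os (0.905). The first of these overlaps Tnc on the opposite strand, and Myadml2os overlaps Myadml2 and Notum. Mc5r was selected for its level in cluster 5, so these r mostly set the 4 lines of cluster 5 against low levels elsewhere. Tlr12 was read in 84 cells and in 21 of cluster 5, and the cell with most Tlr12 reads was also the one with most Mc5r reads. On chromosome 18, Mc5r was flanked by Rnmt, an mRNA cap methyltransferase 12744 bases away with 6453 reads, 757 of them in cluster 5, and by Mc2r, the ACTH receptor, 64461 bases away with 45 reads in 2 cells, neither of them in cluster 5.

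**Figure D4:**
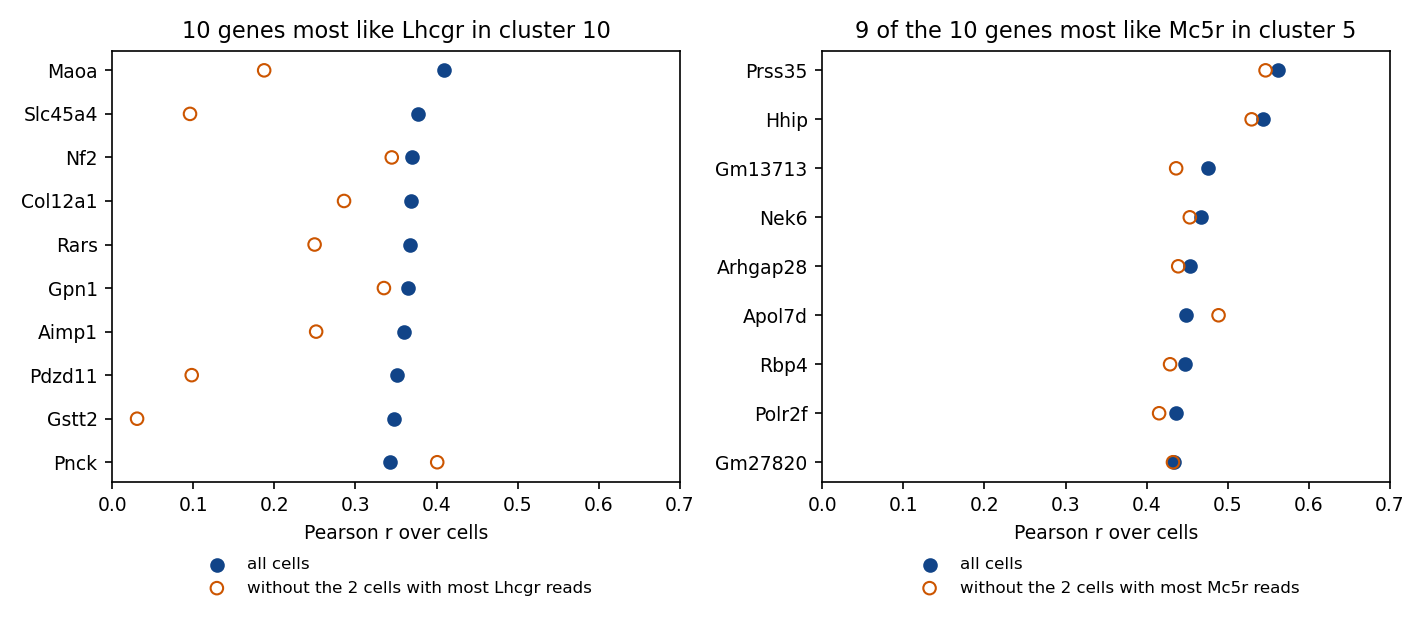
Pearson r over cells for the 10 genes most like Lhcgr in cluster 10 (left) and for 9 of the 10 most like Mc5r in cluster 5 (right, 73 cells). Filled points use all cells and open points leave out the 2 cells with most reads of the receptor. The open points fall to as little as 0.0306 for Lhcgr but stay between 0.415 and 0.547 for Mc5r.

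Hormones and other receptors of the gonadotropin system were nearly missing. Cga and Fshb, which encode the common alpha subunit and the FSH beta subunit, had no read, as had Fshr. The TSH receptor gene Tshr had 1 read. Lhb, the beta subunit of luteinizing hormone, had 11 reads in 9 cells, with at most 2 in a cell. Tshb, the beta subunit of thyrotropin, had 63 reads in 5 cells, and 61 of them were in 3 cells of cluster 10. Gnrh1 and Gnrhr, the releasing hormone and its receptor, were read in 22 and 29 cells, of which cluster 10 held 1 read each. Rxfp2, the receptor for the Leydig cell hormone INSL3, had 30 reads, all in 1 cluster 10 cell, and Rxfp1, a relaxin receptor, 17 reads in 15 cells. Of the related R-spondin receptors, Lgr5 was read more widely, whereas Lgr6 had 0 reads in cluster 5 and 398 in the other fibroblast clusters. Lgr5 stood at 159.03 ± 56.2 reads per 500000 in cluster 5 (n = 4 lines), 40.2 ± 46.7 in the other fibroblast clusters (n = 5) and 0.573 ± 0.637 in cluster 10 (n = 4).

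In the melanocortin system, Mc3r had no read and Mc4r 1 read. Mc1r, the melanocortin receptor of pigment cells, was read in 110 cells with at most 6 reads in a cell, and was found in 13 of 76 cells of cluster 5. Mrap, an accessory protein of the ACTH receptor, had 8 reads in 1 cell, and Mrap2, an accessory protein of other melanocortin receptors, 412 in 71 cells. Pomc, the hormone precursor, had 1078 reads in 59 cells, of which cluster 5 held 54 reads in 4 cells. Agrp, an antagonist of melanocortin receptors, was read in 53 cells. Among the processing enzymes, Pcsk1 had no read, Pcsk2 had 93 reads in 48 cells, and Cpe, a carboxypeptidase that trims peptide hormones, was abundant in cluster 10.

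Cluster 10 was then compared with all fibroblast clusters for the genes around these receptors, with edgeR on reads summed per line and the line as a block (4 lines). Genes were called at an adjusted p under 0.05 and a log2 fold change of at least 2. The clusters had been made from the same values, so a p here says only how far a difference repeated over lines. Of all 16092 genes tested, 6.2% were called, 2.17% higher and 4.02% lower in cluster 10. The lists of the gonadotropin and melanocortin systems, the cyclic AMP pathway, receptor shut-off, other Gs-coupled receptors and steroid synthesis were read without Lhcgr and Mc5r. Of their genes that passed the filter on low counts, 12 were higher and 8 lower, or 19.4% of those tested. Among the higher ones, Akap6, Grk3, Gcgr and Crhr2 did not pass that filter in the fit among fibroblasts given below. They entered here through cluster 10, where they were high, so their p-values and calls are not support for a difference. The median log2 fold change was -0.58 in the lists and -0.93 over all genes. With the median of all genes set to 0, there were 14 higher and 2 lower list genes (Adcy7 and Hsd11b1), and 3.34% of all genes were higher and 1.5% lower, so the split between directions depended on that scale.

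Genes that damp G protein signals were among the highest. Rgs4, a regulator of G protein signalling, had 591 ± 159.05 reads per 500000 in cluster 10 (n = 4 lines) and 0.575 ± 0.440 in fibroblasts (n = 5), a log2 difference of 10.37 with an SE of 0.71 (edgeR adjusted p = 1.05e-08). Rgs5 had 517 ± 421 against 2.01 ± 2.80, 8.66 ± 0.93 on the log2 scale (edgeR adjusted p = 3.87e-06). Both Rgs4 and Rgs5 were called in all 4 fits that left out a line. Grk3, a receptor kinase, rose by 6.55 ± 1.72 on the log2 scale (edgeR adjusted p = 0.0273). It rested on 10 cells and on the Acta2GFP line, at 48.7 reads per 500000 against 3.15 to 8.78 in the other lines, and was called in 1 of the 4 fits without a line. In total, 3 of 16 shut-off genes tested rose, with Grk3 past the filter on low counts through cluster 10, and none fell. Another 13 did not pass, among them the arrestins Arrb1 and Arrb2.

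In the cyclic AMP pathway 5 of 44 genes tested rose and 4 fell. Of the 5, Akap6 passed the filter on low counts through cluster 10, as said above. Akap6 had 36.4 ± 21.6 reads per 500000 in cluster 10 and 0.0499 ± 0.0620 in fibroblasts (log2 fold change 9.76 ± 1.66, edgeR adjusted p = 0.000761), from 28 cells (22.4%). Adcy5, an adenylyl cyclase, had 68.4 ± 58.1 against 2.47 ± 2.79 (4.72 ± 1.03, edgeR adjusted p = 0.00748), but kept its call in only 1 of the 4 fits without a line. Pde3a, a phosphodiesterase of smooth muscle, had 382 ± 184.2 against 30.8 ± 23.6 (4.13 ± 0.56, edgeR adjusted p = 5.59e-05). Prkar1a, a regulatory subunit of protein kinase A, had 842 ± 340 against 131.3 ± 36.8 (2.49 ± 0.37, edgeR adjusted p = 0.000194). Pkig, a protein kinase A inhibitor, rose by 3.25 ± 0.76 (edgeR adjusted p = 0.0121). The genes that fell were Adcy7, another cyclase (-5.71 ± 1.32, edgeR adjusted p = 0.0114), Rapgef3, a cyclic AMP sensor (-5.77 ± 1.66, edgeR adjusted p = 0.0432), Akap12, a scaffold (-3.23 ± 0.71, edgeR adjusted p = 0.00779), and Pde10a, with 1 read in cluster 10 and 1975 in fibroblasts. Gnas, which encodes Gs itself, was read in every cell of cluster 10, at 472 ± 142.1 against 767 ± 57.02, and did not pass (-0.76 ± 0.32, edgeR adjusted p = 0.164).

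Among 22 other Gs-coupled receptors and partners tested, 3 rose and 2 fell. Of the 3, Gcgr and Crhr2 passed the filter on low counts through cluster 10, as said above. Gcgr, the glucagon receptor, had 48.7 ± 43.5 reads per 500000 against 0.0449 ± 0.0338 (10.01 ± 1.67, edgeR adjusted p = 0.000752), from 28 cells (22.4%) and with no read in C57BL6. Crhr2, a receptor for urocortins, had 43.2 ± 55.3 against 0.0883 ± 0.173 (9.23 ± 2.02, edgeR adjusted p = 0.00821), from 22 cells (17.6%) and again none in C57BL6. Ramp1, a partner of the CGRP receptor, had 107.9 ± 52.05 against 12.9 ± 5.74 (3.03 ± 0.87, edgeR adjusted p = 0.0439). Lhcgr, Gcgr and Crhr2 were thus each read in a minority of cluster 10 cells. Of the 10 Lhcgr cells 2 held a Gcgr read (20%), beside 26 of the others (22.6%). Adcyap1r1, the PACAP receptor, fell (-4.68 ± 1.37, edgeR adjusted p = 0.0467). Glp2r, a receptor for a glucagon-like peptide, had 0 reads in cluster 10 and 836 in fibroblasts, at least 15.04-fold lower against a floor of 3 reads over the group.

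Cpe was the called gene of the melanocortin list, 1 of 7 tested, with 668 ± 170 reads per 500000 in cluster 10 and 16.3 ± 25.5 in fibroblasts (log2 fold change 6.82 ± 0.82, edgeR adjusted p = 1.52e-05). In the gonadotropin list Lgr5 fell (-5.83 ± 1.40, edgeR adjusted p = 0.0153) as 1 of 4 tested. In the steroid list, 1 of 10 genes tested fell and none rose. This was Hsd11b1, which regenerates active glucocorticoid, with 10.0 ± 12.9 against 296.8 ± 62.5 (-5.99 ± 0.86, edgeR adjusted p = 0.000125). Nr5a1, the steroidogenic transcription factor, had no read in any cell, and Star, the carrier of cholesterol into mitochondria, had 33 reads in 2 cells of cluster 10. The calls of Rapgef3, Lgr5, Adcyap1r1 and Ramp1 held in 1 of the 4 fits without a line, and those of Pde10a and Glp2r in 0. Without the line as a block Adcyap1r1 also missed the threshold (edgeR adjusted p = 0.0757). The median log2 fold change was -2.59 in the melanocortin, -1.81 in the gonadotropin, -1.58 in the steroid and -1.27 in the receptor list, each lower than the median of all genes (-0.93). In the cyclic AMP list it was 0.03 and in the shut-off list -0.42, both above that median.

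**Figure D5:**
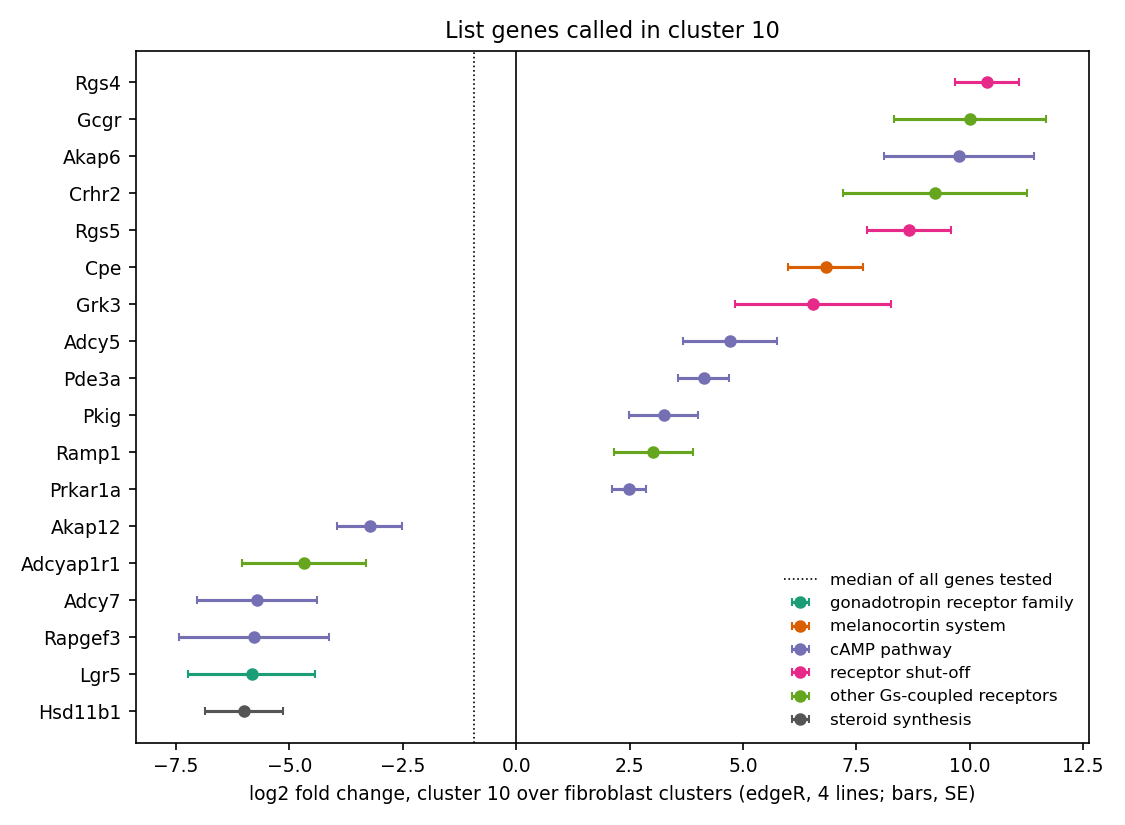
Log2 fold change of the 18 called list genes with over 3 reads in both groups, cluster 10 over all fibroblast clusters (edgeR, 4 lines, bars are SE), coloured by list. The dotted line is the median of all genes tested, -0.93. Rgs4, Gcgr, Akap6 and Crhr2 lie farthest to the right and Hsd11b1, Lgr5, Rapgef3 and Adcy7 farthest to the left.

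A smaller share of genes was called between cluster 5 and the other fibroblast clusters. This share depends on the lines and cells of a fit as well as on the size of differences. Of 16145 genes tested, edgeR called 0.762% (0.297% higher, 0.465% lower), with 4 lines and the line as a block. With the median gene set to 0 this became 0.65% higher and 0.266% lower. Of 98 list genes tested, 1 was higher and 1 was lower, both of them Gs-coupled receptors and both kept with the median gene at 0. Calcrl, the receptor that forms the CGRP and adrenomedullin receptors with RAMP proteins, had 76.7 reads per 500000 in C57BL6 cells, 97.8 in Cspg4dsRED cells, 354 in PdgfraGFP cells and 235.1 in PdgfrbGFP cells. The same lines stood at 26.5, 12.8, 47.6 and 37.4 in the other fibroblasts. The Cspg4dsRED value in cluster 5 came from 3 cells. The log2 fold change of Calcrl was 2.27 ± 0.44 (edgeR adjusted p = 0.0343), and it was read in 64 of 76 cells. The call did not hold without the line as a block (edgeR adjusted p = 0.0881) and held in 2 of 4 fits without a line. Of the 45 cells with Mc5r, 42 had a Calcrl read (93.3%), as had 22 of the 31 others (70.97%), at the different depths given above. Adcyap1r1 fell, from 75.4 ± 33.2 in other fibroblasts to 1.29 ± 0.855 in cluster 5 (-6.02 ± 1.00, edgeR adjusted p = 0.0134), and this call held in 3 of 4 such fits.

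The other lists gave no call in cluster 5 with edgeR. Over all 16145 genes tested, 2127 had an unadjusted edgeR p under 0.05 and DESeq2 called 8.68%. In the melanocortin list 0 of 7 genes tested passed, 1 had an unadjusted p under 0.05 and DESeq2 called 1. In the cyclic AMP list these counts were 0 of 43, 9 and 7, in the shut-off list 0 of 15, 4 and 4, in the steroid list 0 of 11, 4 and 3, and in the gonadotropin list 0 of 5, 3 and 1. The receptor list, with the 2 calls above among 17 genes tested, had 11 with an unadjusted p under 0.05 and 10 called by DESeq2. Lgr5 was higher by 4.29 ± 1.66 on the log2 scale without passing (edgeR adjusted p = 0.270). Atrn, a membrane protein linked to melanocortin signalling, had 61.2 ± 54.5 reads per 500000 in cluster 5 and 18.6 ± 8.35 in the other fibroblasts (edgeR adjusted p = 0.687). Gnas was read in 75 of 76 cells, at 584 ± 127.4 and 781 ± 67.7. The median log2 fold change was -0.98 over the lists and -0.77 over all genes. It was lowest in the receptor list, at -4.02 (-3.50 with 2 genes without reads in cluster 5 set to their bound), followed by -2.53 in the gonadotropin and -0.97 in the cyclic AMP list. The shut-off list had -0.57, the melanocortin list -0.49 and the steroid list -0.43.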

How the data were processed

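Smart-seq2 libraries of single bladder cells were analysed from 1 table of raw read counts per gene and cell, deposited by the authors with 46517 gene rows, 92 ERCC spike-in rows and 1479 cells. Per the study's methods and processing notes, reads were demultiplexed with bcl2fastq, trimmed with trim galore, mapped to GRCm38 with TopHat2 and Bowtie, and counted with featureCounts of the Subread package. The methods also name a samtools step for doublets. The annotation release used for counting is not given in the sources used here. Smart-seq2 does not mark strand, so reads from exons that overlap on opposite strands cannot be told apart. Gene overlaps were taken from gene ends, not from exons. No doublet caller was run here.

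Clusters, lines and plates were taken from the labels. Counts were summed per line and class for lines with at least 3 cells in both classes and tested with edgeR 4.0.16 in R 4.3.3 (TMM, filterByExpr, quasi-likelihood test, line as a block, Benjamini-Hochberg adjustment over all genes). The line served as the block because both sums of a line came from the same plates. The SE of a log2 fold change is not given by edgeR. It was derived as the absolute log2 fold change over the square root of the test's F statistic, and is approximate. The study's gene filter (over 20 reads in at least 3 cells and at least 300 reads in all) left 14586 genes for the comparison of profiles. DESeq2 1.42.0 served as an alternative. Levels, shares and correlations were computed with Python 3.11.15, pandas 2.3.3, numpy 2.4.6 and scipy 1.17.1, and plots with matplotlib 3.10.9. Symbols and coordinates came from the GRCm38 annotation, which covered 46005 gene identifiers. The edgeR step was also run on simulated counts with less spread than these data and no line effect. That run does not bear on the calls made here.

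Named genes were both receptors, up to 4 called genes per list and comparison with the largest fold change, the hormones, receptors and accessory proteins of both systems, the 10 and 5 most similar genes (of which 1 is not reported here), the genomic neighbours and the cell type markers. Adcy5, Pde3a, Pkig, Akap12, Prkar1a, Ramp1, Pde1b, Gnas, Arrb1, Arrb2, Rgs16, Tspo and Nr5a1 fall outside this rule and were named after their values were seen. The receptors and lists were chosen with earlier results of these data known. Alternatives were other normalizations and filters, other correlation settings, and leaving out each line.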

Additional observations from a re-analysis of the deposited data

Results flagged for a closer look

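Among 32 groups of 4 or 5 lines, 7 had a line set apart from the others, by its gap to the nearest line over the range of the group. Of these, 5 concern Lhcgr or Mc5r, which were selected on these values, and in 3 all other lines were at 0, where the gap fills the range whatever the value. The gaps are therefore given as a description and not as a test. In cluster 10, 33.3% of C57BL6 cells held a Lhcgr read against 8.89% in the nearest line, which is 1 of 3 cells. Grk3 stood at 48.7 reads per 500000 in Acta2GFP cells of cluster 10 against 8.78 in the nearest line. Pde10a stood at 0.157 in Acta2GFP cells of cluster 10 and at 0 in the other lines, from 1 read.

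The others concerned low levels of Mc5r outside cluster 5. In cluster 2 the C57BL6 line stood at 6.18 reads per 500000 against 0.538 in the nearest line, through the cell with 41 reads. PdgfrbGFP was highest in cluster 1 (0.349, other lines at 0), cluster 7 (0.303, other lines at 0) and cluster 8 (0.414, nearest 0.115). This line holds the cells of plate bladder_881s, where 87 cells outside cluster 5 held an Mc5r read.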

How the results depend on the processing

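Of 98 alternative values, 65 stayed within the SD over lines (levels and shares) or 1.5 times (counts) and 33 moved. Reversals of direction were not looked for. That SD is wide for Lhcgr, whose level ran from 6.55 to 21.5 and whose share in cluster 10 ran from 3.2% (at least 10 reads) to 14.2% (mean of line shares). In cluster 10, where 6.2% of genes tested were called, DESeq2 called 18.6%, sums per plate and line 15.9%, and fits without 1 line 2.88 to 5.79%. The 20 list calls there were 36 with DESeq2 and 11 to 19 without a line, lowest without Acta2GFP or Cspg4dsRED (11 each) and 13 without PdgfrbGFP. In cluster 5, with 0.762% called, DESeq2 called 8.68%, sums per plate and line 3.00%, fits without a line 0.559 to 1.31% (highest without Cspg4dsRED), and a fit without the filter on low counts 0.697% of 28553 genes. Its 2 list calls, 1 higher and 1 lower, were 26 with DESeq2 (6 higher, 20 lower) and 9 with sums per plate and line (1 higher, 8 lower). Without a line they were 0 to 3 (0 without PdgfraGFP, 1 without PdgfrbGFP).

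The line was the replicate block. With no replicate block 9.56% of genes were called in cluster 10, 1.41% in cluster 5 and 4 list genes in cluster 5 (0 higher, 4 lower). The cause of these differences was not tested.

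Of the 10 genes most like Lhcgr, 3 stayed with Spearman's rank correlation and 3 with genes read in at least 10% of cells. With a pseudocount of 10, 5 stayed, without the 2 highest cells 3, without centring 9, and without a line 1 to 8. After thinning 3 stayed, but 4513 genes were compared there in place of 6957. Only Rars, Aimp1 and Pnck of the 10 had a value after thinning, and all 3 stayed. That count therefore cannot show whether the order was stable to thinning. For Mc5r, 5 stayed without centring, 6 after thinning, where Gm13713 had no value, and 5 or 6 without C57BL6, PdgfraGFP or PdgfrbGFP. Leaving out Cspg4dsRED changed nothing, because its 3 cells were already absent from the 73 cells used. Leaving out the 2 highest cells or a plate was chosen after seeing the data. Of the 10 cells with Lhcgr, 6 had under 10 reads.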
